A study of Homo sapiens with 6 samples.

Results

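The genes described here break down the amino acid tryptophan along the kynurenine pathway (TDO2, AFMID, KMO and KYNU) or form the aryl hydrocarbon receptor pathway that some of the breakdown products can switch on (AHR, ARNT, AHRR, TIPARP, CYP1A1 and CYP1B1). All 10 were found by symbol among the 59050 entries of the table. They were put together because of the large rise of TDO2 between the groups compared below, so the difference of TDO2 is given as a description with no test. Bulk RNA-seq was made from HFF, human foreskin fibroblasts, that carried pLNC ER:RAS (G12V), which joins mutant H-RAS to the ligand-binding part of the oestrogen receptor. The 4-OHT group (3 libraries) received 100 nM 4-hydroxytamoxifen, which activates the fusion protein. It was collected 1 week after 4-OHT was added, in oncogene-induced senescence, a lasting arrest of growth. The DMSO group (3 libraries) received the vehicle, and the study text gives the time of harvest for the 4-OHT cells. Both groups carried the vector, had been infected at about passage 18 and had been selected with 200 µg/ml neomycin as stable lines. Cells given 4-OHT without ER:RAS are not analysed here, so effects of the ligand and of the oncogene cannot be told apart.

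Levels are TPM, the share of a transcript in a library after scaling for its length, as deposited. The 6 libraries summed to between 998366.6 and 998842.6 TPM, and their read depth is unknown. Differences are 4-OHT minus DMSO on log2(TPM + 1), which understates changes of genes at low levels. A gene is said to have risen or fallen where limma, fitted over the 15272 genes that averaged 1 TPM or more, gave a Benjamini-Hochberg adjusted p under 0.05. By that rule 19.8% of genes passed upward and 29.9% downward in 4-OHT, 49.6% in all, and the libraries of the groups did not overlap in 59% of the genes. That balance depends on the scaling: 3018 genes were higher and 4561 lower as deposited, 4039 and 3579 of 15225 under median-of-ratios scaling, and 3649 and 3612 of 15276 under quantile normalization. The median log2 difference of all genes tested was -0.09. It shifted upward by 0.11 under median-of-ratios scaling and by 0.13 under quantile normalization. The transcript that drives the model, HRAS, stood at 1316, 1305 and 1222 TPM in 4-OHT and at 942, 908 and 956 TPM in DMSO, a row that does not separate the introduced gene from the cells' own. Nothing in the labels says whether replicates were separate cultures, so p-values reflect the scatter among these libraries alone, which may be technical.

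Most tryptophan that is not built into protein leaves by the kynurenine pathway. TDO2, best known as the enzyme of liver, or the interferon-induced enzymes IDO1 and IDO2 open the indole ring, and AFMID removes a formyl group to leave kynurenine. Kynurenine is turned into kynurenic acid by aminotransferases, cleaved by KYNU, or hydroxylated by KMO and led through KYNU, HAAO and QPRT towards NAD. Kynurenine and kynurenic acid are among the ligands of AHR, a transcription factor kept in the cytosol by chaperones. Bound by a ligand, AHR enters the nucleus, pairs with ARNT and switches on genes such as CYP1A1, CYP1B1, TIPARP and AHRR, of which the products of the last 2 restrain AHR in turn.

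The windows around the transcription starts of 4 of these genes are printed because TDO2 had the widest difference of the set, TIPARP and CYP1A1 are known AHR targets at opposite ends of the levels measured, and the window of AFMID also takes in the start of a gene that went the other way. Each runs from 250 bases before the RefSeq start to 50 from it on, in GRCh38.p14. Capitals mark the core that AHR and ARNT are known to bind, GCGTG, or the same letters read on the opposite strand, which overlaps in form with the core that HIF factors bind with ARNT.
TDO2, chr4:155903446-155903745, plus strand: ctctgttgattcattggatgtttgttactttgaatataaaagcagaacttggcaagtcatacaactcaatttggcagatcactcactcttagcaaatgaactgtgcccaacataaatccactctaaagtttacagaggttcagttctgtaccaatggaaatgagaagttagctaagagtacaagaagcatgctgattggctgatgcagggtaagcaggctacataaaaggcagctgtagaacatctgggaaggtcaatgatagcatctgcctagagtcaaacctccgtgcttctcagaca
TIPARP, chr3:156674340-156674639, plus strand: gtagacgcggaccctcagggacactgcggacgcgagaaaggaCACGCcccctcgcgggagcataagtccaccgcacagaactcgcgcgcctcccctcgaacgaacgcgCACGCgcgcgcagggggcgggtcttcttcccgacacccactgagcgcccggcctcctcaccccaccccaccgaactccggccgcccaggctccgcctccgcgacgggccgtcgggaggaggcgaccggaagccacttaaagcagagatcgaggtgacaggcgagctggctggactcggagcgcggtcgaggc
CYP1A1, chr15:74725479-74725778, minus strand: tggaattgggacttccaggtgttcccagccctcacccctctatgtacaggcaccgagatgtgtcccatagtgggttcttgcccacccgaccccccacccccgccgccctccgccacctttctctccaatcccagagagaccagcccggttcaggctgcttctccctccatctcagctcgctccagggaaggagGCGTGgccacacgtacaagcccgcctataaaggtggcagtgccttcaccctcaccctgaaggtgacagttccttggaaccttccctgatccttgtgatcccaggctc
AFMID, chr17:78187112-78187411, plus strand: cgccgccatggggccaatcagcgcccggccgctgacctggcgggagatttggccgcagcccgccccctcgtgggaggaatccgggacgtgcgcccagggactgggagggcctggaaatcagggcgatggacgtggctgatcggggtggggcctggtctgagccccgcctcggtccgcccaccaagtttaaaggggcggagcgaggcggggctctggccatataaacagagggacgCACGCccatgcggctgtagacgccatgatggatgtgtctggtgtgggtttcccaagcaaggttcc
The TDO2 window holds no match, that of TIPARP, the first of its 3 windows, 2 (the others 0), that of CYP1A1 1 and that of AFMID 1. Windows were at hand for 9 of the 10 genes, all but CYP1B1. Those of KMO, KYNU and ARNT hold no match either, that of AHR holds 1, and the 2 windows of AHRR hold 1 and 2. Of all 35116 windows from RefSeq, 36.5% hold at least 1 match, and the share follows base composition: 11.4% of windows under 50% GC and 47.6% of the others. The windows of TDO2, KMO and KYNU have 41.3%, 36.7% and 42.3% GC, and that of TIPARP 71%. A match is a description of letters, not of binding.

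**Figure D1:**
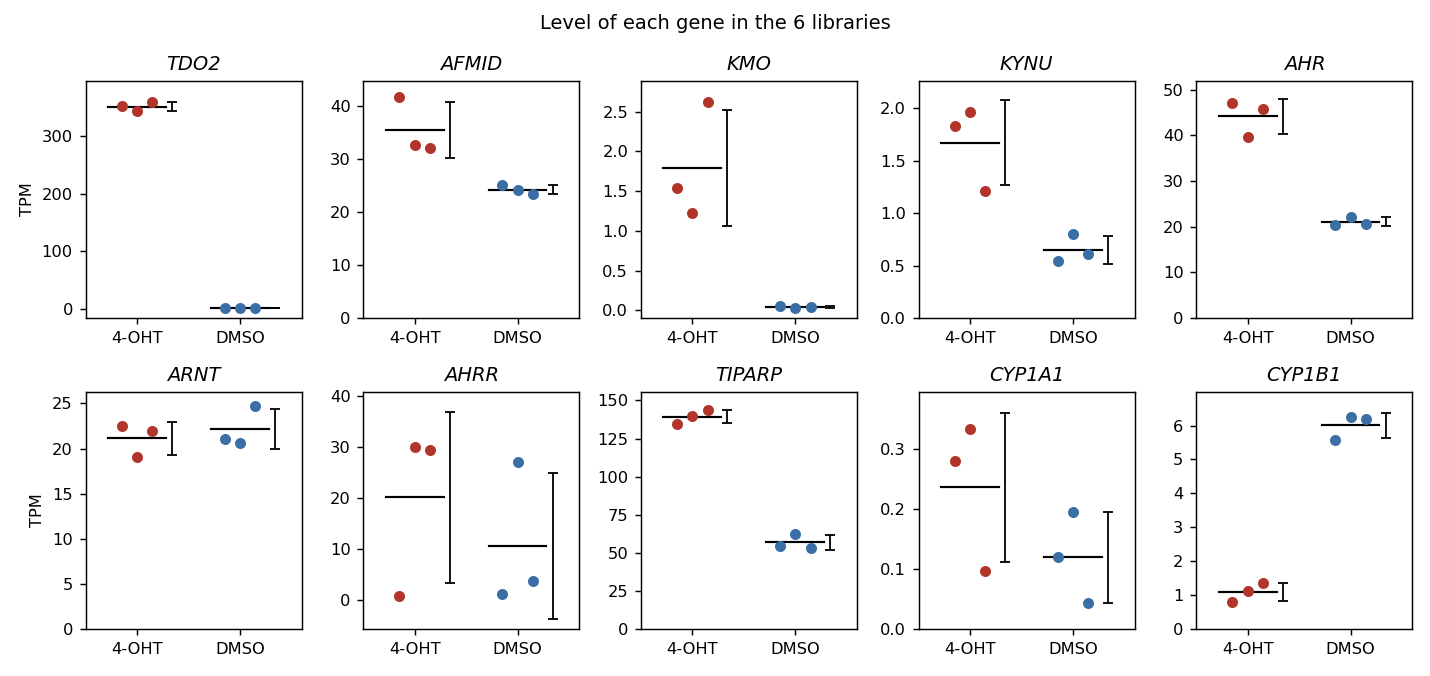
Level in TPM (linear y axis, scaled for each gene) of the 10 genes in each library of 4-OHT and DMSO; points are libraries in the order of replicates 1 to 3, horizontal lines are means and the bars beside them are SD (n = 3). TDO2, AFMID, KMO, KYNU, AHR and TIPARP lie higher in every 4-OHT library, CYP1B1 lower, and ARNT, AHRR and CYP1A1 overlap.

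TDO2 (chromosome 4, 155854738 to 155920406, plus strand, GRCh38, GENCODE 29) was among the most abundant transcripts of the 4-OHT libraries and close to the lower limit of the genes tested in DMSO. It stood at 351, 342 and 358 TPM in 4-OHT, against 1.69, 1.94 and 2.11 TPM in DMSO, a 183-fold difference of the means (6.92 on the log2 scale). The libraries within a group lay close together, and the groups were far apart. By mean level TDO2 ranked 430th of all entries in 4-OHT and 13644th in DMSO. No exon base of TDO2 is shared with another annotated gene. The gene model begins 48958 bases before the RefSeq start printed above, and the row does not say which start was used.

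TDO2 marks liver in the textbooks, so markers of hepatocytes were read beside it. ALB, which encodes serum albumin, was listed at 0 in 4-OHT replicate 1 and stood at 5.04 and 3.84 TPM in 4-OHT replicates 2 and 3, and it was listed at 0 in all 3 DMSO libraries. SERPINA1, also secreted by liver, stood at 0.277, 3.46 and 3.07 TPM in 4-OHT and at 0.0615, 0 and 0.16 TPM in DMSO, and like ALB it reached the filter on low values only through 4-OHT replicates 2 and 3. The 10 hepatocyte markers summed to 0.627, 10.2 and 8.32 TPM in 4-OHT, against 0.437, 0.428 and 0.239 TPM in DMSO. ALB and SERPINA1 made up most of the sum in 4-OHT replicates 2 and 3. APOA1, APOB, AHSG and HNF4A followed ALB over the 4-OHT libraries, all under 1 TPM. Others did not: TAT and HPD were listed at 0 in every 4-OHT library, TTR stayed near 0, and CYP3A4 was highest in 4-OHT replicate 1 (0.347 TPM). TDO2 was as high in 4-OHT replicate 1, where ALB was at 0, as in the others. The 10 fibroblast markers were present throughout, with sums of 20690 to 21210 TPM in 4-OHT and 21850 to 22560 TPM in DMSO. Of these, 3 rose and 6 fell, where 19.8% and 29.9% of all genes tested did. VIM, the main part of the sum, stood at 11537 ± 136 TPM in 4-OHT and 10399 ± 262 TPM in DMSO, while the matrix gene DCN stood at 90.0 ± 9.48 TPM in 4-OHT and 186 ± 12.8 TPM in DMSO. Endothelial markers summed to 1.38 to 1.82 TPM in 4-OHT and 2.47 to 2.59 TPM in DMSO, and they did not move together. TEK, most of the DMSO sum, stood at 0.366 ± 0.106 TPM in 4-OHT and 1.97 ± 0.149 TPM in DMSO. PECAM1 went the other way, at 0.976 ± 0.197 TPM in 4-OHT and 0.334 ± 0.141 TPM in DMSO, as did KDR near 0. Myeloid markers, relevant because KMO and KYNU are known from macrophages, summed to 62.0 to 69.1 TPM in 4-OHT and 61.0 to 91.7 TPM in DMSO, most of it CD68, a lysosomal protein that fibroblasts also make. CD14, a receptor for bacterial lipopolysaccharide, rose to 5.14, 6.98 and 3.59 TPM in 4-OHT, against 2.95, 1.31 and 2.16 TPM in DMSO (log2 difference 0.99, adjusted p = 0.0187), the same direction as KMO and KYNU. CD68, the only other myeloid marker tested, had a lower mean in 4-OHT and was not called. It stood at 57.4 ± 4.73 TPM in 4-OHT and 77.0 ± 16.6 TPM in DMSO, with overlap (log2 difference -0.40, adjusted p = 0.0761). PTPRC, FCER1G, CD163 and LYZ overlapped between the groups and were below the filter. CSF1R, the receptor of macrophage growth factor, overlapped between the groups, at 1.51, 0.705 and 1.33 TPM in 4-OHT and 0.451, 0.738 and 0.592 TPM in DMSO, and was below the filter. The part of myeloid markers in the values of KMO and KYNU was not tested. AIF1 was listed at 0 in every library, and TYROBP and ITGAM were near 0. Of 8 keratinocyte markers, KRT10 and DSP made up nearly all of the sum (75.5 to 85.9 TPM in 4-OHT, 54.8 to 69.3 TPM in DMSO), with KRT1 at 0 throughout. Those tested did not move together. DSP rose to 42.44 ± 0.479 TPM in 4-OHT, against 16.97 ± 0.268 TPM in DMSO (log2 difference 1.27, adjusted p = 3.08e-06). KRT10 had a lower mean in 4-OHT, 37.3 ± 5.26 TPM against 45.2 ± 8.11 TPM in DMSO, with overlap (-0.26, adjusted p = 0.199). EPCAM fell (-0.67, adjusted p = 0.0137), but it reached the filter only through its DMSO level. In bulk samples fewer cells of a type and less RNA per cell cannot be told apart.

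Of the 9 genes other than TDO2, AFMID, AHR and TIPARP rose, CYP1B1 fell, ARNT and AHRR were not called, and KMO and CYP1A1 lay below the filter on low values. KYNU also passed the test upward, but it reached the filter only through its 4-OHT level. Among all genes tested 19.8% were higher and 29.9% lower, a balance that turns with the scaling as given above, and nothing is read from the members' count.

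The enzyme after TDO2, AFMID, the formamidase that yields kynurenine, rose modestly. AFMID (chromosome 17, 78187317 to 78207701, plus strand) was at 41.7, 32.7 and 32.2 TPM in 4-OHT and at 25.1, 24.3 and 23.4 TPM in DMSO. Its groups did not overlap, though 4-OHT replicate 1 stood above the other 2 (log2 difference 0.52, SE 0.105, adjusted p = 0.00525). AFMID starts 84 bases from the start of TK1, the thymidine kinase of dividing cells, which is read in the opposite direction and whose start lies inside the window printed above. TK1 stood at 24.6, 21.0 and 22.7 TPM in 4-OHT and at 190, 175 and 172 TPM in DMSO, so these neighbours moved in opposite directions.

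KMO and KYNU, the enzymes that carry kynurenine further, were both higher in 4-OHT but stayed scarce. KYNU (chromosome 2, 142877498 to 143055832, plus strand) was at 1.83, 1.97 and 1.21 TPM in 4-OHT and at 0.541, 0.797 and 0.614 TPM in DMSO. The groups did not overlap (log2 difference 0.68, SE 0.19, adjusted p = 0.0208), but the gene reached the filter only through its 4-OHT level. The call was lost without 4-OHT replicate 1 (adjusted p = 0.0682), without DMSO replicate 1 (0.0613) or DMSO replicate 3 (0.054) and with no filter (0.0604), and without 4-OHT replicate 2 the gene fell below the filter.

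KMO (chromosome 1, 241532134 to 241595642, plus strand) was at 1.54, 1.22 and 2.62 TPM in 4-OHT and at 0.0558, 0.0328 and 0.0392 TPM in DMSO. Every 4-OHT library was above every DMSO library, and 4-OHT replicate 3 was the highest. With no filter on low values the log2 difference was 1.39 (SE 0.207, adjusted p = 0.00993). KMO shares 1691 of its 5946 exonic bases with OPN3, an opsin gene on the other strand, and the strand setting of the counting is not given in the sources used here, so reads in that stretch cannot be assigned. OPN3 stood at 87.1, 87.3 and 89.2 TPM in 4-OHT and at 35.0, 38.9 and 39.5 TPM in DMSO (log2 difference 1.198). KMO came to 1.76%, 1.40% and 2.94% of the OPN3 level in 4-OHT, against 0.159%, 0.0842% and 0.0993% in DMSO, where KMO was near 0. The part of OPN3 reads in the KMO values was not tested.

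Summed over the 4 enzymes, the libraries held 396.5, 378 and 394 TPM in 4-OHT and 27.4, 27.0 and 26.2 TPM in DMSO. TDO2 was 88.6%, 90.5% and 90.9% of that sum in 4-OHT and 6.18%, 7.19% and 8.06% in DMSO, where AFMID was the main part. Per length, TDO2 was 8.42, 10.47 and 11.1 times AFMID in 4-OHT and 0.0675, 0.0801 and 0.0901 times AFMID in DMSO. In order of level, the 4-OHT libraries ran TDO2, AFMID, then KMO and KYNU, whose values overlapped. The DMSO libraries ran AFMID, TDO2, KYNU and KMO, with no overlap between neighbours.

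Of the 10 other enzymes listed with the pathway, IL4I1 among them, 7 were tested, of which 1 rose, 3 fell and 3 were not called (1 and 2 under quantile normalization). Of all genes tested 19.8% rose and 29.9% fell. Among those of the list that fell, IL4I1 and HAAO reached the filter only through their DMSO level, and nothing is read from the count. The median log2 difference of the list was -0.08, against -0.09 over all genes tested. The other enzymes that open the indole ring, IDO1 and IDO2, were at or near 0. IDO2 was listed at 0 in all 6 libraries, and IDO1 stood at 0.0891 ± 0.0949 TPM in 4-OHT and 0.134 ± 0.14 TPM in DMSO (SD, n = 3 each). The libraries of both groups overlapped for IDO1. IL4I1, listed with these enzymes, is instead a secreted oxidase that acts on tryptophan and related amino acids. It fell to 0.267 ± 0.223 TPM in 4-OHT, against 2.44 ± 0.205 TPM in DMSO (log2 difference -1.45, SE 0.192, adjusted p = 0.000719), though it reached the filter only through its DMSO level. IL4I1 shares 336 of 2563 exonic bases with NUP62, which was also lower in 4-OHT (19.0, 26.3 and 21.3 TPM, against 45.2, 39.8 and 39.5 TPM in DMSO), and their reads may be split between the rows.

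At the NAD end of the pathway the genes went in opposite directions. HAAO, which acts between KYNU and QPRT, fell: it was listed at 0 in 4-OHT replicate 1 and was read at 0.354 and 0.0606 TPM in 4-OHT replicates 2 and 3, against 3.497, 4.92 and 4.22 TPM in DMSO (log2 difference -2.20, SE 0.196, adjusted p = 0.000101), and it too reached the filter only through its DMSO level. QPRT, which turns quinolinate into a NAD precursor, rose to 234, 244 and 232 TPM in 4-OHT, against 124, 124 and 119 TPM in DMSO (log2 difference 0.95, SE 0.0409, adjusted p = 3.05e-06). The means of HAAO thus differed in the opposite direction to those of KMO and KYNU, the steps before it, and all 3 genes were under 1 TPM in one of the groups.

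Of the 4 aminotransferases listed for kynurenic acid none was called higher, and AADAT was called lower. Over all genes the shares were 19.8% and 29.9%, so nothing is read from that count. GOT2, which mainly serves aspartate, stood at 148 ± 5.97 TPM in 4-OHT and 147 ± 5.24 TPM in DMSO (log2 difference 0.01, adjusted p = 0.827). KYAT3 stood at 42.2 ± 2.07 TPM in 4-OHT and 44.7 ± 4.05 TPM in DMSO (adjusted p = 0.449), and KYAT1 at 7.62 ± 1.62 TPM in 4-OHT and 7.71 ± 0.793 TPM in DMSO (adjusted p = 0.895). Both log2 differences, -0.08 for KYAT3 and -0.03 for KYAT1, turned positive with median-of-ratios scaling, and their 95% intervals ran from -0.27 to 0.11 and from -0.39 to 0.33. AADAT fell to 5.34 ± 0.864 TPM in 4-OHT, against 8.31 ± 0.952 TPM in DMSO (log2 difference -0.56, adjusted p = 0.013), but not with quantile normalization (adjusted p = 0.101).

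**Figure D2:**
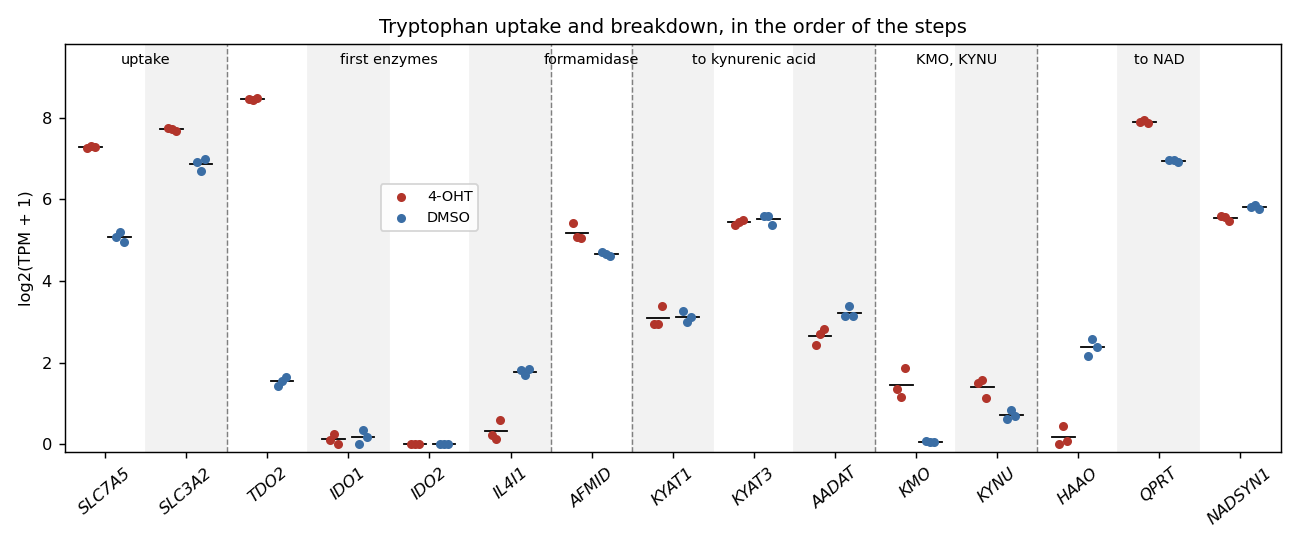
log2(TPM + 1) of genes of tryptophan uptake and breakdown (x axis, in the order of the steps) in each library of 4-OHT and DMSO, with lines at group means. TDO2 is the highest of the 15 genes in 4-OHT, IDO1 and IDO2 lie near 0 in both groups, and HAAO is near 0 only in 4-OHT.

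Tryptophan enters cells largely through an exchanger made of SLC7A5 (LAT1) and SLC3A2. SLC7A5 rose to 152, 157 and 155 TPM in 4-OHT, against 32.5, 35.4 and 29.7 TPM in DMSO (log2 difference 2.22, SE 0.0683, adjusted p = 7.34e-07), and SLC3A2 to 209 ± 5.89 TPM, against 116 ± 11.9 TPM in DMSO (0.85, adjusted p = 1e-04). The LAT2 chain SLC7A8 fell to 11.8 ± 0.546 TPM in 4-OHT, against 17.0 ± 0.609 TPM in DMSO (-0.49, adjusted p = 0.00143). SLC36A4, which also carries tryptophan, was at 6.44 ± 0.825 TPM in 4-OHT and 9.52 ± 0.38 TPM in DMSO (-0.51, adjusted p = 0.00716, or 0.0652 under quantile normalization). So 2 of the 4 tested transporters rose and 2 fell (2 and 1 under quantile normalization). With 19.8% of all genes tested higher and 29.9% lower, nothing is read from so small a count. The other 3 of the 7 listed were below 1 TPM.

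Among 10 genes for other uses of tryptophan 3 were tested and only INMT rose, as did 19.8% of all genes tested. INMT, which methylates tryptamine and other small amines, stood at 73.3, 72.5 and 74.2 TPM in 4-OHT and at 3.87, 4.02 and 4.31 TPM in DMSO, 18.02-fold higher (log2 difference 3.88, SE 0.0673, adjusted p = 8.59e-08). The cytosolic tryptophanyl-tRNA synthetase, WARS in the table, stood at 111 ± 3.94 TPM in 4-OHT and 123 ± 8.66 TPM in DMSO (adjusted p = 0.107). The serotonin enzymes TPH1 and TPH2 and the decarboxylase DDC were at 0.114 TPM or less in every library.

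Of 8 genes of NAD synthesis and nicotinamide use 7 were tested, 2 rose and 2 fell (2 and 1 under median-of-ratios scaling, 3 and 2 under quantile normalization). Among all genes as deposited 19.8% rose and 29.9% fell. NAMPT, the rate-limiting enzyme of NAD salvage, stood at 109 ± 2.05 TPM in 4-OHT and 52.7 ± 1.5 TPM in DMSO (log2 difference 1.04, adjusted p = 3.34e-06), and NMNAT2, which makes NAD in neurons above all, at 5.44 ± 0.591 TPM in 4-OHT and 2.58 ± 0.0779 TPM in DMSO (0.85, adjusted p = 0.00113). NADSYN1, the last enzyme on the route from tryptophan, was at 45.7 ± 2.09 TPM in 4-OHT and 55.2 ± 1.97 TPM in DMSO (-0.27, adjusted p = 0.00702), but median-of-ratios scaling took the adjusted p to 0.0684 and leaving out 4-OHT replicates 2 and 3 to 0.103. NNMT, which methylates nicotinamide, was at 64.4 ± 4.78 TPM in 4-OHT and 98.6 ± 18.4 TPM in DMSO (-0.59, adjusted p = 0.0101), a call lost with no filter on low values (0.062) or without 4-OHT replicates 2 and 3 (0.159).

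The receptor AHR rose while its partner ARNT did not move beyond its spread. AHR (chromosome 7, 16916359 to 17346152, plus strand) was at 47.0, 39.7 and 45.7 TPM in 4-OHT and at 20.4, 22.2 and 20.6 TPM in DMSO. The lowest 4-OHT library was well above the highest DMSO library (log2 difference 1.03, SE 0.0808, adjusted p = 5.3e-05). An overlapping gene model, AC019117.2, holds 2373 of the AHR exon bases and was listed at 0 in every library.

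ARNT (chromosome 1, 150809705 to 150876768, minus strand) was at 22.5, 19.1 and 21.9 TPM in 4-OHT and at 21.1, 20.7 and 24.8 TPM in DMSO. The groups overlapped, and the log2 difference of -0.06 had a 95% interval from -0.30 to 0.17 (adjusted p = 0.627). Its sign turned with quantile normalization (0.01) and with median-of-ratios scaling (0.05). AHR was 2.09, 2.08 and 2.08 times ARNT per length in 4-OHT, and 0.967, 1.07 and 0.831 times ARNT in DMSO.

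All 8 chaperones and coactivators followed here for AHR were tested, of which 1 rose and 3 fell (1 and 1 under median-of-ratios scaling and under quantile normalization). The shares of all genes tested were 19.8% and 29.9%. The coactivator NCOA3 rose to 45.9 ± 2.01 TPM, against 16.9 ± 0.451 TPM in DMSO (1.39, adjusted p = 3.5e-06), and the coregulator NRIP1 fell to 4.23 ± 0.312 TPM, against 8.0 ± 0.406 TPM in DMSO (-0.78, adjusted p = 0.000702). HSP90AB1 stood at 1043 ± 25.9 TPM in 4-OHT and 1157 ± 33.6 TPM in DMSO (-0.15, adjusted p = 0.0113), but it missed the threshold with the other scalings (0.522 and 0.147) and with no variance trend (0.0811). HSP90AA1, the inducible form of the same chaperone, stood at 896 ± 32.8 TPM in 4-OHT and 987 ± 49.8 TPM in DMSO (-0.14, adjusted p = 0.0425), and the adjusted p ran from 0.0342 to 0.756 over the alternatives.

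ARNT also serves the HIF factors and other proteins of the bHLH-PAS family. Of 13 such genes 10 were tested, 1 rose and 3 fell (2 and 3 under each of the other scalings). Beside that, 19.8% of all genes tested rose and 29.9% fell. EPAS1, which encodes HIF-2 alpha, fell to 22.5, 24.4 and 23.2 TPM in 4-OHT, against 193, 195 and 184 TPM in DMSO (log2 difference -2.98, SE 0.0522, adjusted p = 8.76e-08). HIF1A rose to 272, 282 and 285 TPM in 4-OHT, against 198, 209 and 204 TPM in DMSO (0.46, SE 0.0394, adjusted p = 8.48e-05). HIF1A was thus 11.6 to 12.3 times EPAS1 in the 4-OHT libraries and 1.03 to 1.10 times EPAS1 in the DMSO libraries. ARNT2, the close relative of ARNT, fell to 5.42 ± 0.939 TPM in 4-OHT, against 13.9 ± 2.07 TPM in DMSO (-1.22, adjusted p = 0.000525). SIM1, a further partner of ARNT, fell to 3.11 ± 0.495 TPM, against 14.5 ± 3.6 TPM in DMSO (-1.90, adjusted p = 0.000137).

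AHR targets did not move together. TIPARP, an ADP-ribosyltransferase that AHR induces and that restrains it, rose. TIPARP (chromosome 3, 156673235 to 156706770, plus strand) was at 135, 140 and 143 TPM in 4-OHT and at 54.7, 62.3 and 53.4 TPM in DMSO. The groups were wide apart, by 2.45-fold (log2 difference 1.28, SE 0.0673, adjusted p = 7.38e-06).

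CYP1B1, a cytochrome P450 that hydroxylates oestradiol and polycyclic hydrocarbons, fell. CYP1B1 (chromosome 2, 38066973 to 38109902, minus strand) was at 0.794, 1.13 and 1.35 TPM in 4-OHT and at 5.58, 6.26 and 6.19 TPM in DMSO. The groups did not overlap (log2 difference -1.75, SE 0.149, adjusted p = 7.95e-05). CYP1B1-AS1, antisense to it with 678 shared exonic bases, was at or below 0.226 TPM in every library.

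CYP1A1 (chromosome 15, 74719542 to 74725610, minus strand), the classical target of AHR in liver and skin, stayed near 0 in both groups. It was at 0.280, 0.332 and 0.0956 TPM in 4-OHT and at 0.119, 0.194 and 0.0435 TPM in DMSO, and the groups overlapped. With no filter on low values the log2 difference was 0.14 (SE 0.0932, adjusted p = 0.435). Its neighbour CYP1A2 was listed at 0 in all DMSO libraries and averaged 0.000995 TPM in 4-OHT.

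AHRR, the repressor that competes with AHR for ARNT, varied more within groups than between them. AHRR (chromosome 5, 304176 to 438291, plus strand) was at 0.874, 30.1 and 29.5 TPM in 4-OHT and at 1.26, 27.2 and 3.79 TPM in DMSO. So 2 libraries of 4-OHT and 1 of DMSO were at 27.2 to 30.1 TPM and the other 3 at 3.79 TPM or less, and the groups overlapped (log2 difference 0.85, 95% interval -2.22 to 3.92, adjusted p = 0.621). AHRR lies on the same strand as PDCD6, a calcium-binding protein, and the gene models share 244 exonic bases, so reads may be split between them. PDCD6 stood at 209, 205 and 196 TPM in 4-OHT and at 127, 94.6 and 146 TPM in DMSO, lowest in the DMSO library with the most AHRR. The sum of both was 210, 235 and 226 TPM in 4-OHT and 128, 122 and 150.2 TPM in DMSO. The sum of the hepatocyte markers, mostly ALB and SERPINA1, was also raised in the 4-OHT libraries with high AHRR but not in DMSO replicate 2. Without 4-OHT replicates 2 and 3, a choice made after seeing these values, the log2 difference of AHRR turned to -1.84 (adjusted p = 0.361). The part of either in the AHRR values was not tested.

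**Figure D3:**
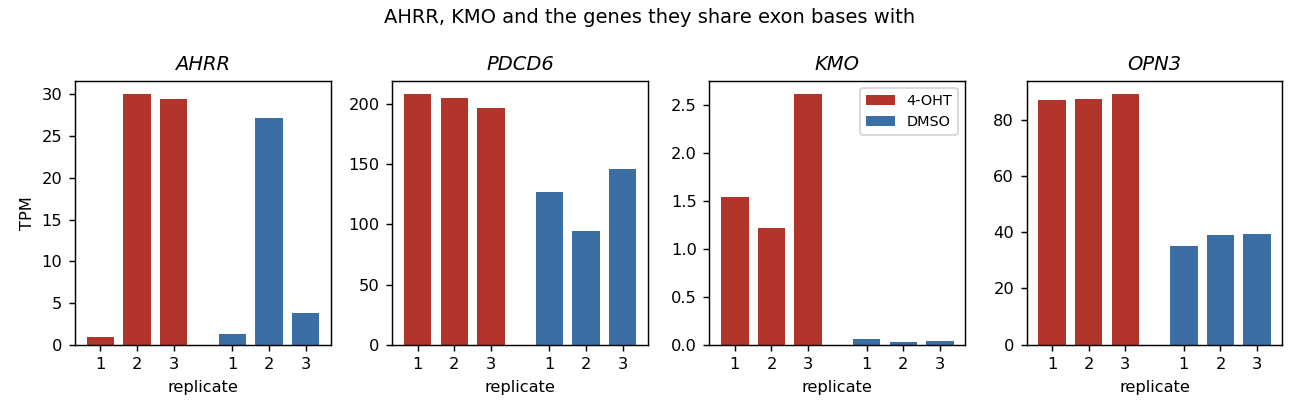
TPM (y axis, from 0) of AHRR and KMO and of PDCD6 and OPN3, which share exonic bases with them, in replicates 1 to 3 of 4-OHT and DMSO; each bar is a library. AHRR is at 27.2 to 30.1 TPM in 4-OHT replicates 2 and 3 and in DMSO replicate 2, while KMO and OPN3 are higher in every 4-OHT library.

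Of 15 other genes reported as AHR targets 9 were tested, 6 rose and none fell (7 and 0 under each of the other scalings), with a median log2 difference of 0.49. Over all genes tested 19.8% were higher and 29.9% lower, with a median of -0.09. SERPINB2 and EREG were already known to be higher in these libraries when the list was drawn up, so the list is not independent evidence of its direction, and most of its genes have other known inducers. SERPINB2, an inhibitor of plasminogen activators, stood at 464, 459 and 487 TPM in 4-OHT and at 31.6, 35.0 and 17.5 TPM in DMSO (log2 difference 4.08). EREG, a ligand of the epidermal growth factor receptor, stood at 352 ± 9.38 TPM in 4-OHT and 64.8 ± 3.66 TPM in DMSO (2.43). The aldehyde dehydrogenase ALDH3A1 rose to 3.92 ± 1.16 TPM in 4-OHT, against 0.649 ± 0.336 TPM in DMSO (1.57, SE 0.242, adjusted p = 0.0015), and reached the filter only through its 4-OHT level. ALDH1A3, which makes retinoic acid, rose to 15.6, 10.3 and 10.4 TPM in 4-OHT, against 5.89 ± 0.229 TPM in DMSO (0.90, adjusted p = 0.00298). It shares 1585 of 5772 exonic bases with AC015712.2 on the other strand, so reads in that stretch cannot be assigned. AC015712.2 stood at 0.753, 0.746 and 0.734 TPM in 4-OHT and at 3.48, 3.35 and 4.28 TPM in DMSO. The quinone reductase NQO1, also a target of NRF2, rose to 642 ± 13.7 TPM, against 456 ± 10.3 TPM in DMSO (0.49, adjusted p = 3.03e-05). UGT1A1, GSTA1 and GSTA2 were listed at 0 in all 6 libraries.

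**Figure D4:**
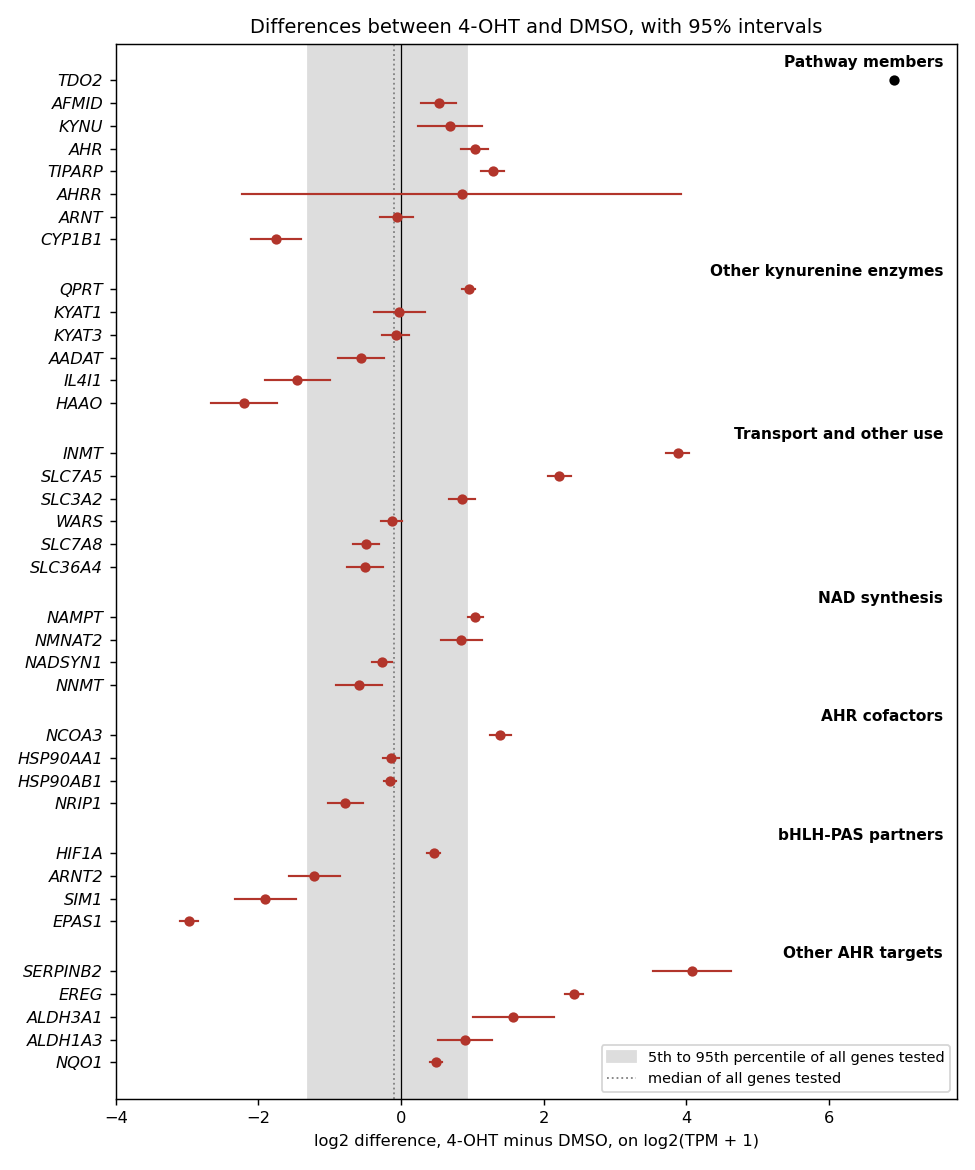
log2 difference, 4-OHT minus DMSO, of the tested genes named here (points) with 95% intervals from limma, grouped by role; TDO2 is drawn without an interval because it was chosen for its difference. The grey band is the 5th to 95th percentile of all genes tested, from -1.30 to 0.92, and the dotted line their median; AHR, TIPARP and CYP1B1 lie outside the band, ARNT near 0, and the interval of AHRR spans the whole band.

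The genes whose 6 values ran most like those of TDO2 were found by the root-mean-square distance between log2 profiles, each less its own mean, over 11054 genes of at least 5 TPM. They were CST1 (distance 0.53), LCE1F (0.55), EGR2 (1.01), TNFSF15 (1.03) and TAGLN3 (1.22), all with smaller log2 differences than TDO2, from 4.50 to 5.88. Their DMSO means ran from 0.0812 TPM (LCE1F) to 0.983 TPM (TAGLN3), so they met the 5 TPM minimum only through their 4-OHT level. For CYP1B1 the nearest were NFIX (0.04), FANCI (0.04), LAMA4, CTNNAL1 and EPHB4, and for KYNU they were NDUFA3 (0.07), GAL (0.08), HIST3H2A, PPP3CC and PRR5. With 6 libraries in 2 groups this likeness mostly reflects the size of the group difference.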

How the data were processed

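Per the labels' protocols, TRIzol-extracted RNA (1 µg) went into KAPA RNA HyperPrep libraries. GRCh38, Trim Galore 0.6.6, StringTie and STAR are named in the submitters' processing notes. The authors deposited TPM per gene symbol; no source used here gives the annotation, the strand setting or any scaling between libraries. The column of DMSO replicate 3, also TPM as deposited by the authors, had its unit entered as a score because 1 value lay just below 0; it was set to 0. The genes and lists were chosen with earlier results of these data known.

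Genes averaging 1 TPM or more were compared on log2(TPM + 1) with limma 3.58.1 in R 4.3.3 (variance trend, 2-sided, no covariate, Benjamini-Hochberg over 15272 genes, threshold 0.05). The method was also run on simulated data with far fewer changed genes than were called here, and no result rests on that run. Alternatives changed the scaling, pseudocount, filter, variance trend, replicate term and set of libraries. Named genes were all 10 members, up to 4 called genes of each list with the largest difference, further genes that act at the same step as a member or pair with one, and the 5 genes nearest to TDO2, KYNU and CYP1B1. TK1, OPN3, PDCD6, NUP62 and other genes that share bases or a start region with these, single marker genes, and GOT2, UGT1A1, GSTA1, GSTA2, TPH1, TPH2 and DDC, were named after their values were seen. A gene of the AHR cofactor list is not reported here. Positions and shared exonic bases come from GENCODE 29, promoter windows from RefSeq (GRCh38.p14). Python 3.11.15, pandas 2.3.3, numpy 2.4.6 and matplotlib 3.10.9 were used.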

Additional observations from a re-analysis of the deposited data

How the results depend on the processing

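Over all genes, 3018 were higher and 4561 lower; median-of-ratios scaling gave 4039 and 3579 and quantile normalization 3649 and 3612, so the excess of lower genes turned round; leaving out 1 library gave 2620 to 2755 and 3903 to 4180, and leaving out 4-OHT replicates 2 and 3 together, a choice made after the hepatocyte markers were seen, gave 1831 and 3244, with fewer libraries. Of the genes other than TDO2, 4 were higher, KYNU included (3 to 5 on leaving out 1 library) and 1 lower (1 in each), and 3 and 1 without 4-OHT replicates 2 and 3; with a minimum of 5 TPM, which removes CYP1B1, 0 were lower. The log2 difference of TDO2 ranged up to 7.45, at a pseudocount of 0.1. Signs turned for ARNT with median-of-ratios scaling (0.0522), quantile normalization (0.0132) and without 4-OHT replicates 2 and 3 (0.0248), and its range on leaving out 1 library, -0.11 to 0.0154, spans 0. They also turned for KYAT1 (0.0785 and 0.21 with the same scalings, -0.178 to 0.0507 without 1 library), for KYAT3 with median-of-ratios scaling (0.0393) and for AHRR without 4-OHT replicates 2 and 3 (-1.84); none of these was called, and the cause was not tested. No shared effect of the replicate number was seen: deviations of same-numbered libraries correlated at 0.0475, 0.00549 and 0.00664, and not every library correlated best with its own number. With so few libraries these correlations cannot tell whether samples were paired in the experiment. With a replicate block 2819 genes were higher and 4246 lower, and of the genes other than TDO2 4 and 1. Read depth is unknown, so low levels, such as those of CYP1A1 and IDO1 and of KMO in DMSO, have no counting interval here.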
